A study of Mus musculus with 32 samples.

Results

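The acyl-CoA thioesterases of the Acot family were described here through 10 genes, Acot1, Acot2, Acot3, Acot4, Acot7, Acot8, Acot9, Acot11, Acot12 and Acot13. They were picked by symbol from the 55401 gene identifiers of the count files, and each symbol matched 1 identifier. The libraries came from C57BL/6 mice of 200 days. COX10 KO mice lack the heme A assembly factor COX10 in skeletal muscle, because Cre is made there from the Myl1 locus, and develop a mitochondrial myopathy. They were compared with CTL mice of the same strain and age, whose alleles are not given in the sources used here. Calf muscle and liver were each taken from 6 COX10 KO and 6 CTL mice, labelled as 3 females and 3 males per genotype, and the hypothalamus from 4 COX10 KO and 4 CTL males. The Cre acts in muscle fibers, so the liver and the hypothalamus were read as tissues of mice with a diseased muscle. Each library counted tags from the 3′ end of transcripts. Because such tags do not scale with transcript length, counts scaled to library size (CPM) were used to compare levels between genes as well as between mice.

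Acyl-CoA thioesterases split an acyl-CoA into a free fatty acid and coenzyme A. They are placed in the same compartments as the enzymes that make and oxidize acyl-CoAs, and are known for setting how much of an acyl-CoA stays active and how much coenzyme A is free. Acot2, Acot9 and Acot13 are found with mitochondria, Acot1, Acot7, Acot11 and Acot12 in the cytosol, and Acot3, Acot4 and Acot8 in peroxisomes. Several of them are known as targets of the fatty acid receptor PPARα in liver and muscle.

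Acot1, Acot2, Acot3 and Acot4 are close relatives that lie side by side on chromosome 12 of GRCm38, all on the plus strand. The cluster runs in the order Acot2 (chr12:83987861-83993873), Acot1 (chr12:84009490-84018371), Acot4 (chr12:84038379-84048601), Acot3 (chr12:84052144-84060402), Acot5 (chr12:84069325-84076020) and Acot6 (chr12:84100654-84111349), and Acot5 and Acot6 are not among the 10 members. The others lie apart from it, Acot7 (chr4:152178134-152271855, plus strand), Acot11 (chr4:106744555-106804998, minus strand), Acot8 (chr2:164792765-164804882, minus strand), Acot12 (chr13:91741512-91786148, plus strand), Acot13 (chr13:24817948-24831540, minus strand) and Acot9 (chrX:155262443-155297654, plus strand). The promoters of the members on which the results turn were read from RefSeq (GRCm38.p6), from 250 bases before to 50 bases after the annotated start, and are shown 5′ to 3′ on the strand of the gene. Of the 10 members, 9 had an entry, and that of Acot7 has its start inside the span of the gene given above. Acot2 and Acot7 are shown because they were the members that changed in COX10 KO muscle, and Acot1 because it is the neighbour and nearest relative of Acot2. Acot12 is shown because it was called lower in both other CTL tissues than in CTL liver. The same was called for Acot1, Acot3 and Acot8. Capitals mark the hexamer AGGTCA, the core that nuclear receptors such as PPARα bind, or its reverse complement.
Acot2 (chr12:83987611-83987910, plus strand): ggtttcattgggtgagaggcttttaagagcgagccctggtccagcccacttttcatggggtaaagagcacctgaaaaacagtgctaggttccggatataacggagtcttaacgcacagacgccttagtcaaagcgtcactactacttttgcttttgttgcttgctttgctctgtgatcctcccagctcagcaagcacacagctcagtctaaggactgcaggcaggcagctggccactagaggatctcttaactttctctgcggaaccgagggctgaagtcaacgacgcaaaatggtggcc
Acot1 (chr12:84009252-84009551, plus strand): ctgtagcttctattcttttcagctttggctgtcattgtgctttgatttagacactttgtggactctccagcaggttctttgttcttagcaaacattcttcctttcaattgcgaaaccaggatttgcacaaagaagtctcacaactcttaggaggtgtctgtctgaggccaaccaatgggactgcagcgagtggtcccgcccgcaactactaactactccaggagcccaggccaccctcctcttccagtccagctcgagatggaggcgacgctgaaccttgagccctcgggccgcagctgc
Acot7 (chr4:152185358-152185657, plus strand): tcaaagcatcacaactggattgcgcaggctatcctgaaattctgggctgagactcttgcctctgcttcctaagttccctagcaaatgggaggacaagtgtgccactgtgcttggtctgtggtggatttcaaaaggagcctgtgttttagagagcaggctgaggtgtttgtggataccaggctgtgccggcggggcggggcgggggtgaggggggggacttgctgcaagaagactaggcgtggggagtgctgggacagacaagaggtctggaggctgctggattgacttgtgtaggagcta
Acot12 (chr13:91741271-91741570, plus strand): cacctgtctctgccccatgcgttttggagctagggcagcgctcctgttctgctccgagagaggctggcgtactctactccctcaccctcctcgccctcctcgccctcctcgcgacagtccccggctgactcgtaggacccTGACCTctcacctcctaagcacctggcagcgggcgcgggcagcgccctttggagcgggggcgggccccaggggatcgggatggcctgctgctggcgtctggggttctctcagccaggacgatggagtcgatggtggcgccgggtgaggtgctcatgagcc
The hexamer was searched on both strands. It was not in the windows of Acot2, Acot1 and Acot7, and was found in the window of Acot12, where it starts 110 bases before the annotated start. The windows of Acot3 and Acot4 also held it and that of Acot8 did not, while 16.3% of the 32851 promoters of the same length held it. The repeat of AGGTCA, any 1 base and AGGTCA, to which PPARα binds with RXR, was in none of the members' windows and in 0.0396% of all promoters. The hexamer lies inside that repeat and inside TCAAGGTCA, the site of estrogen-related receptors, which was in no member's window and in 0.423% of all promoters. The ATF4 element TGATGNAAN was in no member's window and in 3.95% of all promoters, and the NRF1 element (GCGCA, any 1 base, GCGC) in none and in 4.6%.

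Total counts were 1734571 to 11404800 in COX10 KO muscle and 434494 to 8936522 in CTL muscle, 674311 to 3197080 in COX10 KO liver and 1955599 to 16044634 in CTL liver, and 3526613 to 5684034 in COX10 KO hypothalamus and 4070847 to 22321322 in CTL hypothalamus. Sex-linked transcripts went against the labelled sex in 2 of the 32 libraries, CTL liver 1 and CTL liver 4. Cox10 averaged 113 ± 16.2 CPM in COX10 KO muscle and 109.8 ± 42.3 CPM in CTL muscle (SD, n = 6 each), which checks no label, since 3′ tags do not show whether an exon is deleted. The tissues matched their labels by their defining markers: 8 skeletal muscle markers summed to at least 54692 CPM in every muscle, 6 hepatocyte markers to at least 94156 CPM in every liver, and 6 hypothalamic neuropeptide genes to at least 424 CPM in every hypothalamus. In COX10 KO muscle, 3 of the 8 muscle markers were lower (Myh4, Tnnt3 and Pvalb) and 4 of 9 macrophage markers higher (Cd68, C1qa, Lyz2 and Ctss). Of all genes tested in muscle, 7.43% were called lower and 6.9% higher. The macrophage markers summed to 253 to 603 CPM in COX10 KO muscle and to 124 to 395 CPM in CTL muscle, with none at 0 in either group, and the muscle markers to 54692 to 100324 CPM in COX10 KO muscle and 55696 to 153208 CPM in CTL muscle. The 6 hepatocyte markers summed to 10.8 to 367 CPM in COX10 KO muscle and to 39.1 to 2448.6 CPM in CTL muscle, with none at 0. The highest sum came from CTL muscle 2, which stood apart, as the other CTL muscles had at most 196 CPM. In hypothalamus the hepatocyte markers summed to 3155 to 5273 CPM in COX10 KO and 1232 to 2821 CPM in CTL mice. Ahsg and Serpina1c were at 0 there. The muscle markers reached 619 CPM in COX10 KO liver and 31.8 CPM in CTL liver. White adipocyte and erythroid markers reached 2855 and 11296 CPM in CTL muscle, against 457 and 2590 CPM in COX10 KO muscle. In these bulk samples fewer cells of a type and less RNA per cell cannot be told apart, and the part of the cell mixture in the results below was not tested.

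In muscle, the thioesterase that changed most was the mitochondrial Acot2, which was 14.6-fold higher in COX10 KO than in CTL mice, while the cytosolic Acot7 fell to 0.421 of its CTL level. Of the 10 members, 7 passed the filter on low counts, 1 was called higher and 1 lower, and 5 were not called (edgeR quasi-likelihood test, Benjamini-Hochberg adjusted p under 0.05 over all genes). In the same comparison 14.3% of all 11636 genes tested were called, 6.9% higher and 7.43% lower, so that the members' count of 2 in 7 is read against that share. Unadjusted p values under 0.05 were found for 5 of the 7 members and for 29.7% of all genes. No member had COX10 KO and CTL values without overlap, against 6.39% of all genes tested. The median log2 fold change was 0.05 over the 7 members tested and -0.03 over all genes.

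Acot2, which hydrolyses long-chain acyl-CoA in the mitochondrial matrix, had 1339, 2674, 1509, 187, 463 and 3150.2 CPM in COX10 KO muscles 1 to 6, against 71.2, 162, 196, 93.6, 100.2 and 35.5 CPM in CTL muscles 1 to 6. Of the COX10 KO muscles, 5 of 6 lay above all CTL muscles, and the male COX10 KO muscle 4 lay within the CTL range. The group means were 1554 ± 1176 CPM in COX10 KO and 109.8 ± 59.2 CPM in CTL muscle (SD, n = 6 each). The log2 fold change was 3.87 (SE 0.571, edgeR adjusted p = 0.000538), and the difference in mean CPM had p = 0.00433 in a two-sided exact permutation test. The spread among COX10 KO mice was wide in the males, at 187 to 3150.2 CPM, and the 3 females had 1339 to 2674 CPM. In females alone the log2 fold change was 3.68 (SE 0.436, edgeR adjusted p = 0.00159), and in males alone 4.08 (SE 0.909, edgeR adjusted p = 0.0408), with means of 1841 ± 727 CPM in COX10 KO and 143 ± 64.4 CPM in CTL females, and 1267 ± 1637 CPM in COX10 KO and 76.4 ± 35.6 CPM in CTL males (SD, n = 3 each). Leaving out each library in turn gave log2 fold changes between 3.05 and 4.09, the lowest without COX10 KO muscle 6, and Acot2 was called each time (edgeR adjusted p between 9.69e-05 and 0.00211).

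Acot9, a mitochondrial thioesterase, averaged 20.0 ± 4.04 CPM in COX10 KO and 12.9 ± 2.64 CPM in CTL muscle (SD, n = 6 each). Its values had a lowest, median and highest of 14.9, 19.3 and 26.6 CPM in COX10 KO muscle and of 9.82, 12.4 and 16.7 CPM in CTL muscle. Again 5 of 6 COX10 KO muscles lay above all CTL muscles, and COX10 KO muscle 3 lay within the CTL range. The log2 fold change of 0.60 (SE 0.209) was not called (edgeR adjusted p = 0.0654), while the exact permutation test of its CPM gave p = 0.00433. Without the sex term in the model the same gene was called (log2 fold change 0.63, edgeR adjusted p = 0.0431), as it was when no library kept more than 1734571 counts (0.87, adjusted p = 0.0196) and without CTL muscle 3 (0.72, adjusted p = 0.0496). Acot13, which works with a phosphatidylcholine transfer protein at mitochondria, was the most abundant member in CTL muscle. It averaged 272 ± 27.1 CPM in COX10 KO and 263 ± 43.6 CPM in CTL muscle, with ranges of 243 to 309 CPM and 192 to 325 CPM that overlapped in full (log2 fold change 0.05, SE 0.165, edgeR adjusted p = 0.872).

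**Figure D1:**
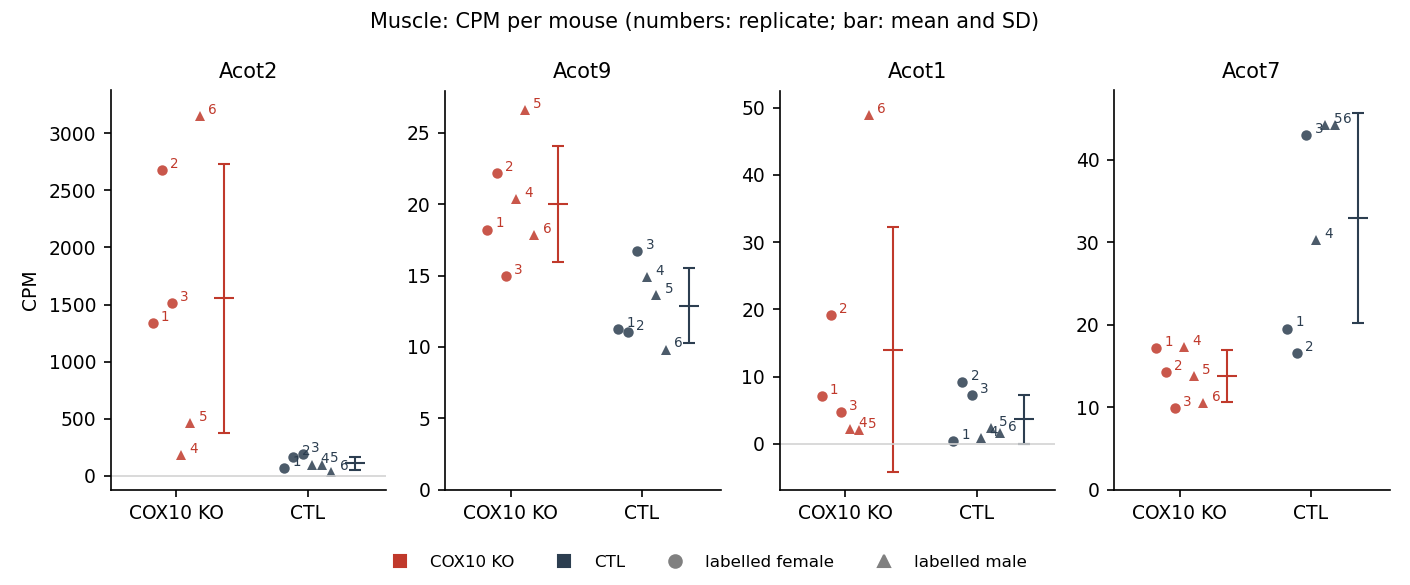
CPM of Acot2, Acot9, Acot1 and Acot7 in each muscle library (vertical axes, linear), with COX10 KO left of CTL, replicate numbers beside the points, circles for mice labelled female, triangles for mice labelled male, and a bar at the mean with its SD (n = 6 each). Acot2 was above the CTL muscles in 5 of 6 COX10 KO muscles, and Acot7 was below them in 4 of 6.

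Among the cytosolic members, Acot7, a long-chain acyl-CoA hydrolase best known from neurons, was the member called lower. Its lowest, median and highest values were 9.86, 14.0 and 17.3 CPM in COX10 KO muscle and 16.6, 36.6 and 44.2 CPM in CTL muscle. In COX10 KO mice 4 of 6 muscles lay below all CTL muscles, and the lowest CTL values, 19.5 and 16.6 CPM, came from the female CTL muscles 1 and 2. The means were 13.8 ± 3.18 CPM in COX10 KO and 32.9 ± 12.7 CPM in CTL muscle (SD, n = 6 each), a log2 fold change of -1.25 (SE 0.26, edgeR adjusted p = 0.0055, exact permutation p = 0.00649). CTL muscle 2, the shallowest library with 434494 counts, held 9 counts of Acot7, and leaving it out gave -1.30 (edgeR adjusted p = 0.00316). Of 4 neuron markers in the same muscles 3 were tested and 1 was lower (Syt1, log2 fold change -2.73, edgeR adjusted p = 0.0164), and of 3 astrocyte markers 2 were tested and 1 was lower (Aqp4, -1.92, adjusted p = 0.026). The neuron markers summed to 4.62 to 13.9 CPM in COX10 KO muscle and 14.0 to 46.1 CPM in CTL muscle. The astrocyte markers summed to 2.59 to 7.79 CPM in COX10 KO muscle and 9.82 to 42.4 CPM in CTL muscle. Neither sum overlapped between the groups. Of all genes tested in muscle, taken singly, 6.39% had groups without overlap and 7.43% were called lower. No marker of either list was at 0 in either group, CTL muscle 2 had the highest sum of both, and their part in the Acot7 result was not tested. The astrocyte list does not mark astrocytes alone, as its median sum was 336 CPM in CTL liver and 133 CPM in CTL hypothalamus. In males alone Acot7 was called (log2 fold change -1.47, edgeR adjusted p = 0.0413), and in females alone it was not (-0.99, adjusted p = 0.199). The difference between the sexes was itself not called (log2 difference, male minus female, -0.53, SE 0.515, edgeR adjusted p = 1.000).

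Acot1, the cytosolic long-chain hydrolase that is the nearest relative of Acot2, was rare in muscle. It had 7.08, 19.1, 4.77, 2.22, 2.04 and 48.8 CPM in COX10 KO muscles 1 to 6, against 0.449, 9.23, 7.23, 0.842, 2.28 and 1.64 CPM in CTL muscles 1 to 6. COX10 KO muscles 6 and 2 had the highest Acot1, and these were also the 2 mice with the highest Acot2, while COX10 KO muscles 4 and 5 were lowest in both genes. The groups overlapped, with 2 of 6 COX10 KO muscles above all CTL muscles. COX10 KO muscle 6 held 617 of the 850 Acot1 counts of its group, and the CTL muscles held 38 counts in all. The log2 fold change of 2.48 (SE 0.881) was not called (edgeR adjusted p = 0.0708, exact permutation p = 0.19), and was 1.05 without COX10 KO muscle 6 (adjusted p = 0.266). It was called without a filter on low counts (2.55, edgeR adjusted p = 4.21e-10), and also passed the threshold when CTL muscle 2 (2.80, adjusted p = 0.0471), CTL muscle 3 (3.28, adjusted p = 0.0442) or COX10 KO muscle 4 (2.71, adjusted p = 0.0417) was left out. CTL muscle 2 had the highest Acot1 of its group and is the library with the high hepatocyte markers, whose part in the result was not tested. Acot11, a thioesterase with a lipid-binding domain known from brown fat, averaged 4.91 ± 2.65 CPM in COX10 KO and 5.84 ± 2.38 CPM in CTL muscle (log2 fold change -0.27, SE 0.392, edgeR adjusted p = 0.69). Acot12, which hydrolyses acetyl-CoA in liver, had 4 counts in all COX10 KO muscles and 1 in all CTL muscles, in CTL muscle 2, and was not tested.

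The peroxisomal members were rare in muscle. Acot8, a broad peroxisomal hydrolase, averaged 5.77 ± 1.89 CPM in COX10 KO and 9.51 ± 5.47 CPM in CTL muscle (SD, n = 6 each), with overlapping ranges of 3.59 to 8.96 CPM and 3.69 to 16.4 CPM (log2 fold change -0.76, SE 0.35, edgeR adjusted p = 0.161). Acot3, a peroxisomal hydrolase of medium- and long-chain acyl-CoA, had 9 counts in the COX10 KO and 5 counts in the CTL muscles, 2 of them in CTL muscle 2 and 3 in CTL muscle 4, and was not tested. Acot4, the peroxisomal hydrolase of succinyl-CoA and dicarboxylyl-CoA, had 0 counts in all 32 libraries of the 3 tissues. A count of 0 would allow up to 3 counts, or 0.0749 CPM over the COX10 KO and 0.14 CPM over the CTL muscles, but the value was not read as a level of the gene. The last 500 bases of Acot4 lie within the span of Gm49366, a gene annotated across Acot4 and Acot3 on the same strand, and outside its exons. Of 604 protein-coding genes placed in this way, 73.7% had 0 counts in all libraries, against 15.8% of 20667 genes whose last 500 bases lie in no other gene of their strand. The last 500 bases of the other 9 members lay in no other gene of their strand.

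In liver, no member was called, and the members with the largest point estimates were the neighbours Acot2, Acot1 and Acot3. Of the 10 members, 7 were tested and 0 called by edgeR, and DESeq2 called 0 of 9, while 0.0927% of all 9707 genes tested by edgeR were called (9 genes), as were 0.431% of genes by DESeq2. No member had groups without overlap, against 0.443% of all genes tested. Unadjusted p values under 0.05 were found for 3 of the 7 members (Acot1, Acot2 and Acot12), against 4.98% of all genes. Of the 7 point estimates, 6 were above 0, and the median log2 fold change was 0.73 over the 7 members and -0.02 over all genes.

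Acot1 had a lowest, median and highest of 31.4, 112 and 329 CPM in COX10 KO liver and of 20.3, 39.8 and 61.0 CPM in CTL liver. In COX10 KO mice 4 of 6 livers lay above all CTL livers, with COX10 KO liver 6 highest and COX10 KO livers 1 and 5 inside the CTL range. The means were 131 ± 106 CPM in COX10 KO and 41.3 ± 15.1 CPM in CTL liver (SD, n = 6 each). The log2 fold change of 1.66 (SE 0.485) had an unadjusted p of 0.00402 in edgeR's quasi-likelihood test and an adjusted p of 0.448, and the exact permutation test of the CPM gave p = 0.0281. Acot2 averaged 196 ± 201 CPM in COX10 KO and 52.3 ± 31.5 CPM in CTL liver, and ranged over 29.9, 120.1 and 559 CPM (lowest, median, highest) in COX10 KO and 23.9, 48.3 and 111 CPM in CTL liver. In COX10 KO mice 3 of 6 livers lay above all CTL livers (log2 fold change 1.91, SE 0.607, edgeR adjusted p = 0.591, exact permutation p = 0.0649). COX10 KO liver 6 was highest and COX10 KO liver 5 lowest in both Acot1 and Acot2. Without COX10 KO liver 6 the log2 fold changes were 1.08 for Acot1 (edgeR adjusted p = 0.876) and 1.21 for Acot2 (adjusted p = 0.971). With sex read from sex-linked transcripts in place of the labels they were 1.65 for Acot1 (edgeR adjusted p = 0.245) and 1.98 for Acot2 (adjusted p = 0.269).

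Acot3 averaged 242 ± 209 CPM in COX10 KO and 90.0 ± 82.4 CPM in CTL liver (SD, n = 6 each). Its values were 107, 164, 663, 145, 152 and 223 CPM in COX10 KO livers 1 to 6 and 4.95, 98.0, 95.6, 109, 228 and 4.88 CPM in CTL livers 1 to 6. COX10 KO liver 3 stood far above its group, CTL livers 1 and 6 stood far below theirs, and 1 of 6 COX10 KO livers lay above all CTL livers (log2 fold change 1.42, SE 0.807, edgeR adjusted p = 0.997, exact permutation p = 0.0736). Without COX10 KO liver 3 the log2 fold change was 0.80, and without both CTL livers that went against their labelled sex it was 1.12 (edgeR adjusted p = 0.999 and 1.000). Acot8, the other peroxisomal member, averaged 35.0 ± 22.4 CPM in COX10 KO and 22.8 ± 9.15 CPM in CTL liver (log2 fold change 0.53, SE 0.434, edgeR adjusted p = 0.997).

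**Figure D2:**
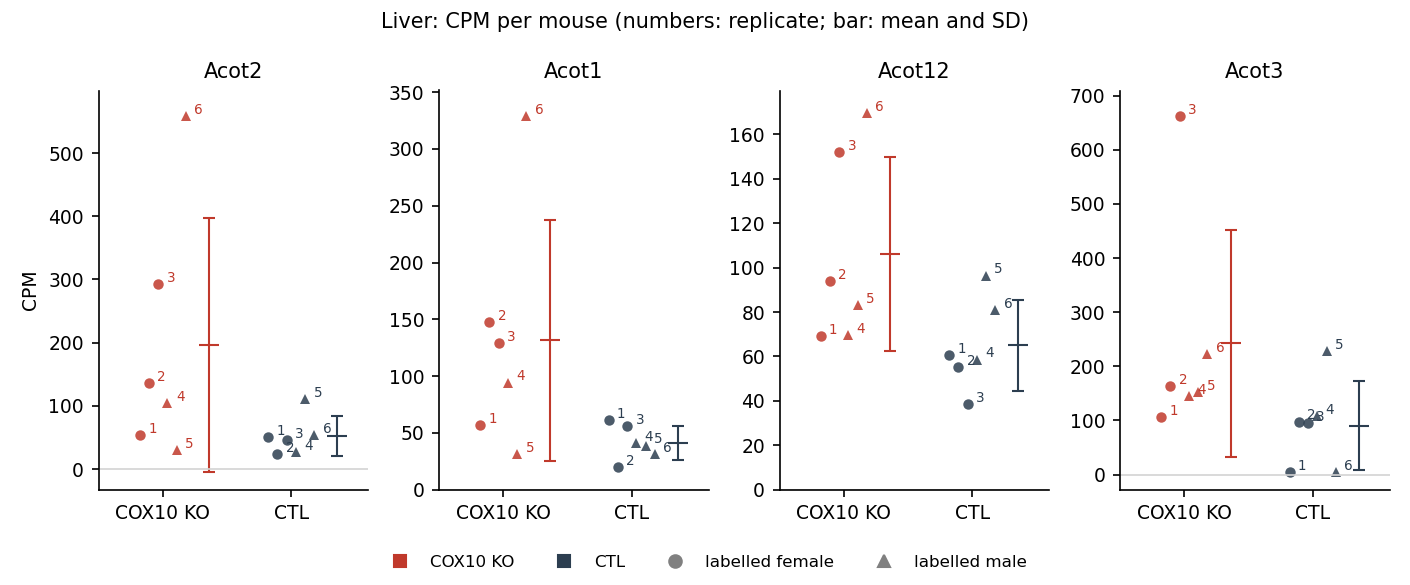
CPM of Acot2, Acot1, Acot12 and Acot3 in each liver library (vertical axes, linear), with COX10 KO left of CTL, replicate numbers beside the points, circles for mice labelled female, triangles for mice labelled male, and a bar at the mean with its SD (n = 6 each). Values of the COX10 KO livers were spread widely and overlapped those of the CTL livers for each of the 4 genes.

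Acot12, the liver acetyl-CoA hydrolase, had a lowest, median and highest of 69.1, 88.4 and 169.7 CPM in COX10 KO liver and of 38.7, 59.6 and 96.4 CPM in CTL liver. In COX10 KO mice 2 of 6 livers lay above all CTL livers. Its means were 106 ± 43.7 CPM in COX10 KO and 65.1 ± 20.4 CPM in CTL liver (log2 fold change 0.73, SE 0.297, unadjusted p = 0.0273 and adjusted p = 0.893 in edgeR, exact permutation p = 0.0584). Acot7 averaged 30.6 ± 19.3 CPM in COX10 KO and 24.1 ± 11.2 CPM in CTL liver (log2 fold change 0.31, SE 0.408, edgeR adjusted p = 0.997). Acot13 averaged 157 ± 36.2 CPM in COX10 KO and 165 ± 34.5 CPM in CTL liver (log2 fold change -0.09, SE 0.223, edgeR adjusted p = 0.997). Acot9 and Acot11 fell below the filter in liver. Acot9 averaged 3.12 ± 0.871 CPM in COX10 KO and 3.44 ± 1.68 CPM in CTL liver (exact permutation p = 0.699). Acot11 averaged 1.56 ± 0.939 CPM in COX10 KO and 5.19 ± 4.08 CPM in CTL liver, over 18 and 113 counts (exact permutation p = 0.0714).

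In the hypothalamus no member was called, and the groups of every member overlapped. Of the 7 members tested, 0 were called by edgeR, DESeq2 called 0 of 9, and 0 had an unadjusted p under 0.05 in edgeR, where 0% of all 13504 genes were called and 1.56% had such a p. DESeq2 called 0% of genes there, and 1.41% of all genes had groups without overlap. The log2 fold changes lay between -0.21 and 0.21, with a median of 0.03 over the 7 members and -0.01 over all genes. Acot7 was the most abundant member, with 307, 339, 390.3 and 399 CPM in COX10 KO and 306, 389, 389 and 289 CPM in CTL hypothalami 1 to 4 (means 359 ± 43.6 and 343 ± 53.3 CPM, SD, n = 4 each, log2 fold change 0.06, SE 0.188, edgeR adjusted p = 1.000). Acot13 followed, with 198 ± 37.5 CPM in COX10 KO and 183 ± 27.6 CPM in CTL hypothalamus (log2 fold change 0.12, SE 0.199, edgeR adjusted p = 1.000). Acot2 had 10.6, 21.1, 27.4 and 30.1 CPM in COX10 KO and 8.84, 22.0, 22.8 and 40.2 CPM in CTL hypothalami 1 to 4, so that the lowest value of each group came from replicate 1 and the highest from replicate 4 (log2 fold change -0.04, SE 0.411, edgeR adjusted p = 1.000). Acot1, Acot8, Acot9 and Acot11 averaged between 12.2 and 21.3 CPM in COX10 KO and between 13.2 and 20.8 CPM in CTL hypothalamus. Acot3 and Acot12 had 17 and 9 counts in COX10 KO and 30 and 27 counts in CTL hypothalamus and were not tested.

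**Figure D3:**
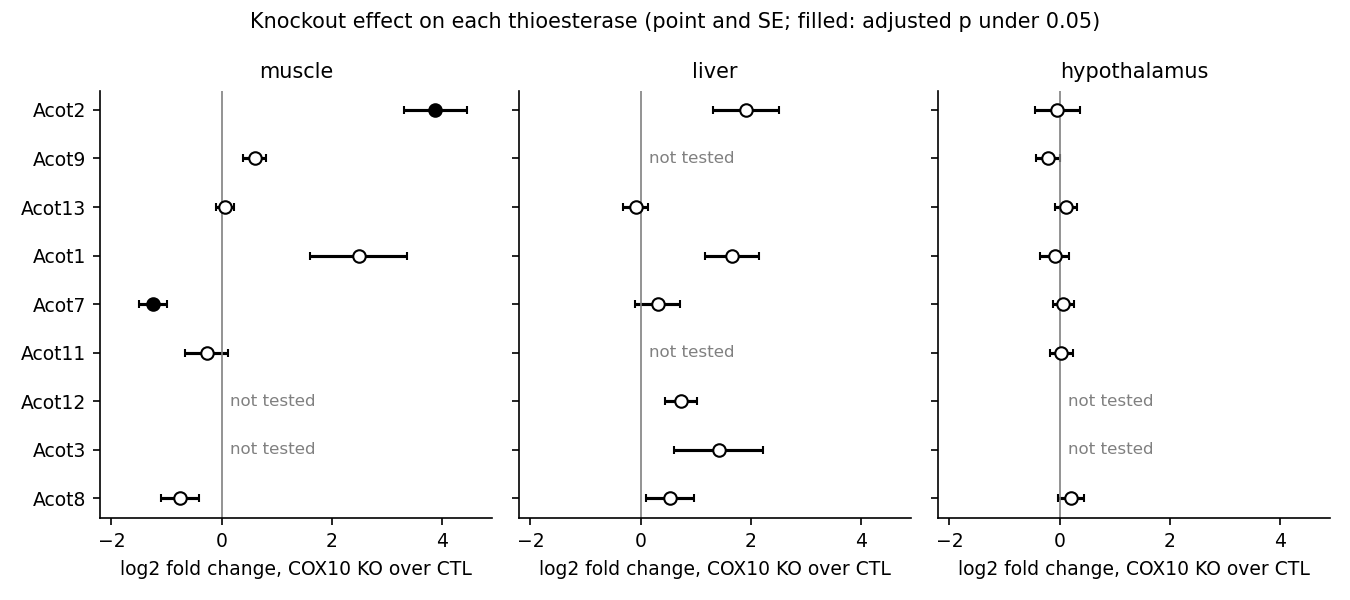
Log2 fold change of COX10 KO over CTL (horizontal axis) for 9 members in muscle, liver and hypothalamus, each from the edgeR fit of that tissue, with its SE as a bar. Filled points have an adjusted p under 0.05, and only Acot2 and Acot7 in muscle are filled.

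Whether a knockout effect differed between tissues was tested in a joint fit of all 32 libraries. For Acot2, the effect in muscle exceeded that in hypothalamus by 3.96 on the log2 scale (SE 0.933, edgeR adjusted p = 0.0265), and it was the only one of 9 members tested that was called, where 0.891% of all 15154 genes were. This call was lost, with adjusted p up to 0.0975, when CTL muscle 6, COX10 KO muscle 2 or 6, CTL hypothalamus 4 or any 1 of the COX10 KO hypothalami was left out, with log2 differences of 3.06 to 4.10. With the replicate number as a block, since same-numbered hypothalamus libraries deviated together, the difference was 3.48 (edgeR adjusted p = 0.124). The effect in muscle minus that in liver was called for 0 of 9 members by edgeR, against 2.83% of all genes, and for 1 by DESeq2, against 7.54%, while 4 members had an unadjusted p under 0.05 in edgeR, against 18.8%. That difference was 2.04 for Acot2 (SE 0.805, edgeR adjusted p = 0.158) and -1.46 for Acot7 (SE 0.459, adjusted p = 0.0739), and DESeq2 called Acot7 (-1.60, adjusted p = 0.0155). The effect in liver minus that in hypothalamus was called for 0 of 9 members and 0% of all genes by edgeR and for 0 members by DESeq2, against 0.117% of all genes, with 2 members at an unadjusted p under 0.05 in edgeR, against 3.71% (1.93 for Acot2 and -1.59 for Acot11). The difference in effect between males and females was called for 0 of 7 members in muscle and 0 of 8 in liver by edgeR (0% of all genes in each). DESeq2 called 0 members in both, against 0.0186% of all genes in muscle and 0% in liver. In edgeR 0 members had an unadjusted p under 0.05, against 3.8% of all genes in muscle and 1.23% in liver. The liver test used the labelled sexes, which CTL liver 1 and CTL liver 4 went against. Its count of members called was also 0 with those livers left out.

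Levels of the CTL groups were compared in the joint fit, where the share of all genes called was 55.6% for muscle against liver, 69.4% for hypothalamus against liver and 63.9% for muscle against hypothalamus (higher 28.8%, 40.0% and 26.6%, lower 26.7%, 29.4% and 37.4%, in this order). Of 9 members tested, 2 were higher and 4 lower in muscle than in liver, 3 higher and 6 lower in hypothalamus than in liver, and 2 higher and 3 lower in muscle than in hypothalamus. Acot4 was left out of these counts.

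Acot2 was ordered muscle, liver, hypothalamus. Its log2 difference was 2.94 for CTL muscle over CTL hypothalamus (SE 0.714, edgeR adjusted p = 0.000627) and -1.99 for CTL hypothalamus over CTL liver (SE 0.683, adjusted p = 0.0105), while CTL muscle and CTL liver did not differ beyond their spread (0.94, SE 0.571, adjusted p = 0.165). Acot13 was higher in CTL muscle than in CTL hypothalamus by 1.29 on the log2 scale (SE 0.226, edgeR adjusted p = 9.38e-06). The calls of its other log2 differences depended on the filter. The values were 0.59 for CTL muscle over CTL liver (SE 0.195, edgeR adjusted p = 0.011), but the adjusted p was 0.0847 without a filter, and -0.71 for CTL hypothalamus over CTL liver (SE 0.221, adjusted p = 0.00547), but -0.63 without a filter (adjusted p = 0.0784) and -0.22 with at least 10 counts in every library (adjusted p = 0.269). Acot9 was 3.85-fold higher in CTL muscle and 2.77-fold higher in CTL hypothalamus than in CTL liver (edgeR adjusted p = 3.09e-07 and 3.29e-05), and muscle and hypothalamus did not differ beyond their spread (adjusted p = 0.122).

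Among the cytosolic members, Acot7 was 8.0-fold higher in CTL hypothalamus than in CTL liver (edgeR adjusted p = 4.37e-09) and 6.18-fold lower in CTL muscle than in CTL hypothalamus (adjusted p = 7.79e-08), with no difference called between muscle and liver (adjusted p = 0.342). Acot1 was highest in liver, 17.4-fold lower in CTL muscle (edgeR adjusted p = 1.58e-05, and log2 differences of -4.13 with and -4.38 without CTL muscle 2) and 5.76-fold lower in CTL hypothalamus (adjusted p = 0.00179), and muscle and hypothalamus were not called different (adjusted p = 0.0751). Acot12 had 1 count in all CTL muscles, in CTL muscle 2, and 1950 counts in all CTL livers (edgeR adjusted p = 1.7e-14, and 1.85e-13 without CTL muscle 2), and was 158-fold lower in CTL hypothalamus than in CTL liver (adjusted p = 6.78e-14). Acot11 was highest in hypothalamus, 2.65-fold over CTL liver (edgeR adjusted p = 0.00319), and 2.17-fold lower in CTL muscle than in CTL hypothalamus (adjusted p = 0.0186), with no difference called between muscle and liver (adjusted p = 0.601). Of the peroxisomal members, Acot3 was 157-fold lower in CTL hypothalamus than in CTL liver (edgeR adjusted p = 5.13e-08). It was also lower in CTL muscle than in CTL liver (adjusted p = 1.23e-08), but on the 5 CTL muscle counts given above, so that the log2 difference ran between -9.97 (without CTL muscle 2) and -8.16 (without CTL liver 5) when each library was left out. Acot8 was 2.47-fold lower in CTL muscle and 2.49-fold lower in CTL hypothalamus than in CTL liver (edgeR adjusted p = 0.00409 and 0.00506), and muscle and hypothalamus differed by 0.01 on the log2 scale (adjusted p = 0.986).

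**Figure D4:**
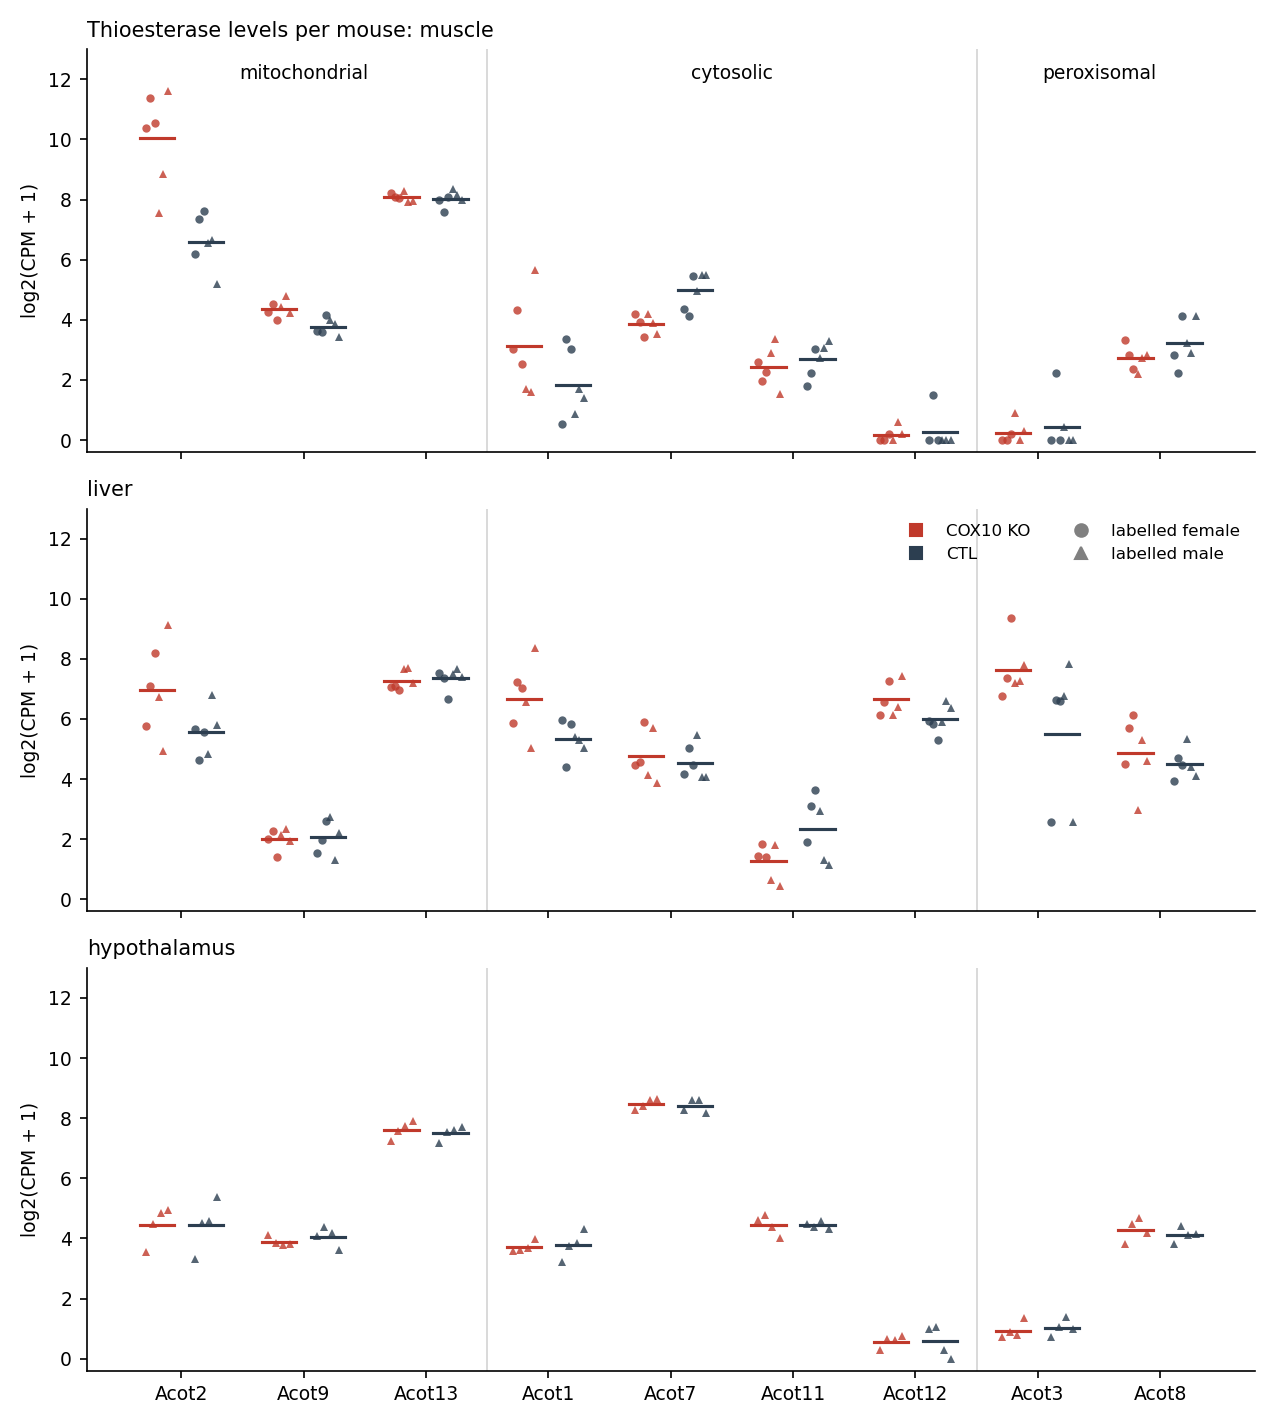
Levels of 9 members in every library as log2(CPM + 1) (vertical axes), in muscle, liver and hypothalamus, with COX10 KO left of CTL for each gene, circles for mice labelled female, triangles for mice labelled male, and a line at the group mean. Acot7 led in hypothalamus, and Acot3 and Acot12 were near the bottom of the axis in muscle and hypothalamus and not in liver. CPM were scaled within each tissue, so heights in different panels are not on a common scale.

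Read by compartment, the transcripts of the 10 members together came to 1885 ± 1175 CPM in COX10 KO and 439 ± 74.6 CPM in CTL muscle, 903 ± 455 CPM in COX10 KO and 469.8 ± 129 CPM in CTL liver, and 647 ± 88.0 CPM in COX10 KO and 617 ± 73.0 CPM in CTL hypothalamus (SD, n = 6, 6 and 4 each). The mitochondrial members made up 97.2 ± 1.71% of this sum in COX10 KO and 87.9 ± 4.08% in CTL muscle. Acot2 alone held 72.7 ± 21.7% of it in COX10 KO and 24.3 ± 11.3% in CTL muscle, and Acot13 held 22.8 ± 18.7% in COX10 KO and 60.7 ± 10.1% in CTL muscle. In liver the sum was spread over the 3 compartments, with 40.2 ± 7.6% mitochondrial, 30.2 ± 4.72% cytosolic and 29.6 ± 10.8% peroxisomal in COX10 KO and 47.9 ± 9.3%, 30.0 ± 5.34% and 22.1 ± 13.2% in CTL mice. In hypothalamus the cytosolic members held 61.0 ± 2.26% of it in COX10 KO and 61.2 ± 4.86% in CTL mice, and Acot7 alone held 55.6 ± 1.51% in COX10 KO and 55.6 ± 5.22% in CTL mice. These shares are a description and were not tested. Acot4 entered every sum with 0 counts, which were not read as its level, so the peroxisomal values are those of Acot3 and Acot8.

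**Figure D5:**
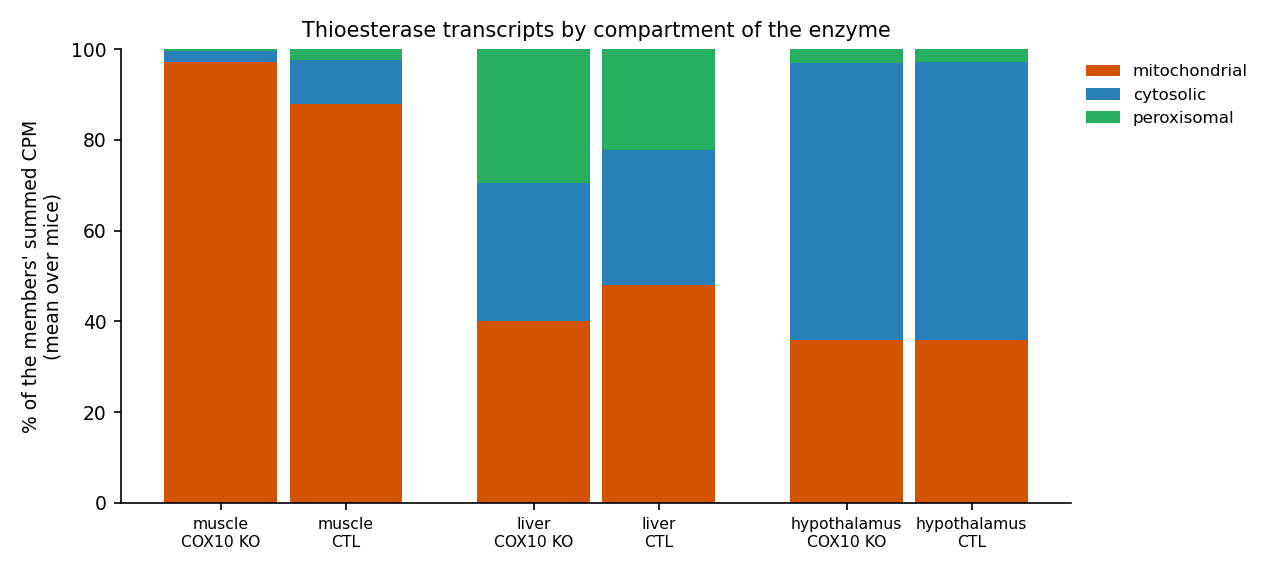
Mean share of the 10 members' summed CPM (vertical axis, percent) held by the mitochondrial, cytosolic and peroxisomal members in each tissue, with COX10 KO left of CTL. The mitochondrial share was 97.2% in COX10 KO and 87.9% in CTL muscle. The peroxisomal share, to which Acot4 adds 0, was largest in liver, and the cytosolic share was largest in hypothalamus.

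Because Acot1 and Acot2 are close relatives, their tags were checked for overlap. Of the 415 windows of 86 nt, the read length, in the last 500 bases of the main transcripts of Acot1 and Acot2, 0 were shared with a transcript of another gene. Another annotated Acot1 transcript shared 6.99% of its windows with Acot2. The check covered exact matches in the last 500 bases only. Whether some Acot1 counts in muscle were tags of Acot2 was not tested. Acot2 supplied 99.0% of the Acot1 and Acot2 counts in COX10 KO and 98.0% in CTL muscle, 58.8% in COX10 KO and 52.3% in CTL liver, and 64.9% in COX10 KO and 60.1% in CTL hypothalamus. These shares come from pooled counts and were not tested. Acot9 shared 2.41% of its windows with its relative Acot10, which had 2 counts in all libraries.

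The relatives outside the 10 members were read from lists of pathway genes that were chosen with earlier results of these data known. Of 13 other thioesterases, 6 were tested in muscle, and 2 rose and 0 fell, with a median log2 fold change of 0.49 against -0.03 over all genes, of which 6.9% were called higher and 7.43% lower. The ones that rose were Acot6, at the end of the chromosome 12 cluster (22.5 ± 4.43 CPM in COX10 KO and 12.9 ± 8.43 CPM in CTL muscle, log2 fold change 0.97, SE 0.3, edgeR adjusted p = 0.0409), and Them4, a mitochondrial thioesterase (23.5 ± 5.62 and 12.9 ± 4.07 CPM in COX10 KO and CTL muscle, 0.89, SE 0.244, edgeR adjusted p = 0.0242). Hibch, which hydrolyses an acyl-CoA of valine breakdown, had 0.77 (edgeR adjusted p = 0.0545), and the cytosolic Lypla2 had 0.20 (adjusted p = 0.491).

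Genes that make, carry and oxidize acyl-CoA were counted beside the same background in muscle, 6.9% of all genes called higher and 7.43% lower, and no list was tested as a set. Of the acyl-CoA synthetases 2 of 10 tested rose and 0 fell, namely Acsl6 (log2 fold change 1.25, edgeR adjusted p = 0.00255) and Acsl1 (0.86, adjusted p = 0.012), which charge long-chain fatty acids with coenzyme A, while Acss1 (0.98, adjusted p = 0.0514) and Acsl3 (-0.70, adjusted p = 0.145) were not called. Of the carnitine shuttle 1 of 7 rose and 0 fell, Cpt2 (0.53, edgeR adjusted p = 0.0436), the inner-membrane acyltransferase. Its partner carrier Slc25a20 had 0.59 (adjusted p = 0.0704). The outer-membrane enzyme Cpt1a had 0.47 (adjusted p = 0.427), and its relative Cpt1c had -1.63 (adjusted p = 0.199). Of mitochondrial β-oxidation 4 of 14 rose and 0 fell: Eci2 (1.37, edgeR adjusted p = 0.000325), Acadl (1.62, adjusted p = 0.0042), Hadhb (1.20, adjusted p = 0.0101) and Hadh (0.86, adjusted p = 0.0407). Of a list of peroxisomal fatty acid oxidation genes, not all of β-oxidation, 2 of 12 rose and 0 fell. These were Acox2, the oxidase of branched acyl-CoA (32.8 ± 11.6 CPM in COX10 KO and 0.693 ± 1.47 CPM in CTL muscle, on 5 CTL counts, edgeR adjusted p = 2.13e-06) and Phyh, which starts the breakdown of phytanic acid (0.74, adjusted p = 0.0204). The reductases Pecr and Decr2 had -0.65 (adjusted p = 0.0567) and 0.79 (adjusted p = 0.107). The medians of these lists were 0.14, 0.14, 0.41 and 0.35 in this order, against -0.03 over all genes.

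Against the same 6.9% called higher and 7.43% called lower over all genes, of the genes known as PPAR targets 2 of 12 rose and 0 fell. They were Pdk4, a pyruvate dehydrogenase kinase (357 ± 216 CPM in COX10 KO and 58.7 ± 36.2 CPM in CTL muscle, log2 fold change 2.61, edgeR adjusted p = 0.00345), and Mlycd, which breaks down malonyl-CoA (1.17, adjusted p = 0.0203). Ucp3 (1.46, edgeR adjusted p = 0.0559) and Fabp3 (1.00, adjusted p = 0.0636) were not called. Of the PPAR and RXR receptors and their coactivators 0 of 8 rose and 2 fell, Rxra (-0.74, edgeR adjusted p = 0.01) and Rxrg (-0.75, adjusted p = 0.0409), and Ppara itself and the coactivator Ppargc1b had -1.23 (adjusted p = 0.105) and -0.67 (adjusted p = 0.259). Of the genes that make and break down coenzyme A 1 of 11 rose and 0 fell, Coasy, the last enzyme of its synthesis (0.77, edgeR adjusted p = 0.0285). The kinase Pank1 had 1.00 (adjusted p = 0.197) and its relative Pank4 had -0.87 (adjusted p = 0.165), while the peroxisomal hydrolase Nudt7 had 0.43 (adjusted p = 0.25). No gene of these lists was called in liver or hypothalamus.

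The genes whose mean level over the 6 tissue and genotype groups was most like that of Acot2 were Zscan21, Hnrnpu and Got1 (Pearson r of 0.997, 0.994 and 0.993 over 6 groups), and those most like Acot7 were Rfx3, Crebrf and Zfp948 (1.00, 0.999 and 0.999). With only 6 groups, and 15154 genes to choose from, these values are a description.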

How the data were processed

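RNA from calf muscle, liver and hypothalamus was sequenced as QuantSeq 3′ tags (86 nt reads), 32 libraries in all. The authors deposited raw counts per gene: BBDuk trimmed the reads, STAR 2.5.0a placed them on GRCm38.p6, and HTSeq 0.6.1 assigned them to genes, while the strand setting is not given in the sources used here. Of 55401 identifiers, 55141 had a symbol and 54349 matched with their version. No pair of libraries was identical, and nothing in the labels says more on how separate the samples were than that each is a mouse.

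Each tissue was fitted with edgeR 4.0.16 (quasi-likelihood test, TMM factors, filterByExpr, a term for the labelled sex in muscle and liver), and tissues were compared in a joint fit of all libraries. Benjamini-Hochberg adjustment ran over all genes tested, with a threshold of 0.05. The SE given with an edgeR log2 value is its absolute size divided by the square root of the test's F statistic. It is not a separately fitted standard error. CPM were TMM-scaled within a tissue. Exact permutation tests (two-sided, scipy 1.17.1) were run on the CPM of single members. Alternatives were DESeq2 1.42.0, other scaling and filters, other sex terms, thinned libraries, a replicate block and leaving out libraries. Floors and counts cover counting error only. Same-numbered COX10 KO and CTL hypothalami deviated together (correlations 0.805, 0.204, 0.395 and 0.308, each over 0.1), although replicate 4 correlated more with another number (0.469). The hypothalamus fits printed carry no block, and the replicate block is given as an alternative.

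All 10 members were named. Of each pathway list the 4 genes with the smallest p in muscle were eligible to be named, with every gene called in liver or hypothalamus and the 3 genes most like each member called in muscle (log2 CPM with a pseudocount of 0.5). Members and lists were chosen with earlier results of these data known.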

Additional observations from a re-analysis of the deposited data

Results flagged for a closer look

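Of 54 groups of samples examined, 8 held a library far from the others by Dixon's criterion, and chance gives such a library in about 1 in 20 groups. Acot1 in COX10 KO muscle 6 stood at 48.8 CPM (617 counts), against 2.04 to 19.1 CPM in the other COX10 KO muscles. Acot3 in COX10 KO liver 3 stood at 663 CPM (405 counts), against 107 to 223 CPM in the other COX10 KO livers. Acot2 in CTL liver 5 stood at 111 CPM (381 counts), against 23.9 to 54.4 CPM in the other CTL livers. Acot9 in COX10 KO hypothalamus 1 stood at 16.3 CPM (75 counts), against 12.7 to 13.3 CPM in the others of its group.

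The other 4 libraries rested on 5 counts or fewer. Acot3 was at 0.856 CPM in COX10 KO muscle 4 (5 counts) and at 3.69 CPM in CTL muscle 2 (2 counts). Acot12 was at 0.511 CPM in COX10 KO muscle 5 (1 count) and at 1.85 CPM in CTL muscle 2 (1 count).

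The knockout effect on Acot2 differed between muscle and hypothalamus by 3.96 on the log2 scale (SE 0.933, edgeR adjusted p = 0.0265). The call was lost with the replicate block (3.48, adjusted p = 0.124), and with adjusted p up to 0.0975 when CTL muscle 6, COX10 KO muscle 2 or 6, CTL hypothalamus 4 or any 1 of the COX10 KO hypothalami was left out.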

How the results depend on the processing

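The count of members called in muscle was 2, and was 1 with at least 10 counts in every library and 1 in females alone. It was 3 without a filter (with Acot1, log2 fold change 2.55, edgeR adjusted p = 4.21e-10), and 3 without the sex term (with Acot9, 0.63, adjusted p = 0.0431) and with thinned libraries (with Acot9, 0.87, adjusted p = 0.0196). In liver it was 0, and 2 without a filter (Acot1, log2 fold change 1.62, edgeR adjusted p = 0.00497, and Acot2, 1.85, adjusted p = 0.00231). The count for muscle minus liver effects was 0, and 1 with DESeq2 and 1 without both CTL livers that went against their labelled sex. The count for muscle minus hypothalamus was 1, and 0 with the replicate block, which left the hypothalamus count at 0. With at least 10 counts in every library the CTL comparisons gave 1 for muscle against liver, 1 for hypothalamus against liver and 2 for muscle against hypothalamus, against 6, 9 and 5. With each library left out, the counts were 2 to 4 in muscle, 0 to 2 for muscle minus liver, 0 to 1 for muscle minus hypothalamus, and 3 to 6 for CTL muscle against CTL hypothalamus. The causes were not tested.

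Signs of uncalled log2 differences turned as follows. In labelled males alone the effect was -0.071 for Acot13 in muscle, -0.14 for Acot8 in liver and 0.0016 for Acot13 in liver. The labelled males of liver include CTL liver 4, which went against its label. Without both CTL livers named above Acot13 in liver had 0.0088. Sex differences turned for Acot2 in muscle with the replicate block (-0.82), for Acot2 in liver with at least 10 counts in every library (0.10) and for Acot7 in liver without those CTL livers (0.52). Muscle minus liver for Acot12 was -0.90 with DESeq2, -0.091 with RLE factors, -0.44 with the replicate block and -0.020 without the sex term. Muscle minus hypothalamus for Acot3 was -0.26 with DESeq2, -0.046 with RLE factors and -0.14 without the sex term, and for Acot13 it was 0.028 without a filter and 0.026 with the replicate block. CTL muscle against CTL hypothalamus for Acot8 was -0.10 with DESeq2, -0.10 with RLE factors, -0.055 without a filter and -0.056 with the replicate block.

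With each library left out, these log2 values also changed sign. In hypothalamus they were -0.30 to 0.13 for Acot1, -0.36 to 0.36 for Acot2, -0.0093 to 0.13 for Acot7, -0.094 to 0.15 for Acot11 and -0.00067 to 0.22 for Acot13. They were -0.018 to 0.65 for Acot7 in liver and -0.46 to 0.031 for Acot11 in muscle. Sex differences in muscle were -0.62 to 3.36 for Acot1, -1.66 to 0.85 for Acot2, -0.030 to 0.37 for Acot9 and -0.92 to 0.26 for Acot11, and in liver -0.55 to 1.24 for Acot1, -1.95 to 0.58 for Acot2, -1.20 to 0.32 for Acot7 and -0.86 to 1.52 for Acot11. Muscle minus liver was -0.53 to 1.72 for Acot1 and -0.71 to 2.03 for Acot12, muscle minus hypothalamus -0.89 to 0.94 for Acot3 and -0.14 to 0.068 for Acot13, liver minus hypothalamus -0.16 to 0.51 for Acot7, and CTL muscle against CTL hypothalamus -0.32 to 0.12 for Acot8.

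Replicate numbers did not pair muscle or liver libraries (correlations of -0.18 to 0.24 and -0.54 to 0.51), and the replicate block there left the muscle calls of Acot2 (3.44, edgeR adjusted p = 0.00404) and Acot7 (-1.20, adjusted p = 0.0316). Depth limits the rarest members: Acot3 and Acot12 in muscle and hypothalamus, and Acot9 and Acot11 in liver, were below the filter.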
